A study of Mus musculus with 14 samples.

Results

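Mouse embryonic fibroblasts that lack SirT7 were compared with wild-type fibroblasts over both culture media together. The comparison used all 14 RNA-seq libraries of the series, 7 labelled SirT7-/- and 7 labelled wild type. The fibroblasts came from embryos at day 14.5 of the strain labelled 129s2 and were used at passages 3 to 4. Before harvest they spent 18 hours in normal medium, which is labelled as no treatment and abbreviated NT, or in medium with no glucose, abbreviated GS. The groups were WT-NT with 4 libraries, KO-NT with 4, WT-GS with 3 and KO-GS with 3, where KO stands for SirT7-/-. The labels do not say which exons the SirT7-/- allele lacks, or how many embryos and cultures stand behind each group. The p-values below therefore measure the spread between these libraries, which may be technical. The series' title is about the part that SirT7 plays in the response to glucose starvation.

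SIRT7 is an NAD-dependent sirtuin that sits mainly in the nucleolus, where it associates with RNA polymerase I and with the ribosomal RNA genes. At other genes it removes an acetyl mark from histone H3, and in human cells it has been found at promoters together with ELK4, a transcription factor of the ETS family. In other work SIRT7 has been linked to ribosomal protein genes, to the stress response of the endoplasmic reticulum (ER) and to mitochondrial genes. These roles set which gene groups are described below.

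Total counts per library ran from 59788270 to 91607861, and 16656 to 17386 genes had at least 1 count. A count of 0 allowed a level of up to 0.0327 to 0.0502 CPM in a library, where CPM is a gene's count scaled to its library's total in the usual way. Summed fibroblast markers were high in every library, at 24962 to 51903 CPM over 12 genes. The sum differed by medium, at 43340 to 50460 CPM in WT-NT and 24962 to 27403 CPM in WT-GS. Single markers ranged from Fn1, at 9375 to 14440 CPM, to Lum, at 3.38 to 122 CPM. The library labelled KO-NT 4 and the library labelled KO-GS 3 stood apart from their groups. Hspa5, which encodes the ER chaperone BiP and responds to glucose starvation, was at 1039 to 1472 CPM in WT-NT and 6426 to 7569 CPM in WT-GS. KO-NT 4 had 6299 CPM of Hspa5 against 1460 to 1552 in the other KO-NT libraries, and KO-GS 3 had 1057 CPM against 5695 and 6064 in the other KO-GS libraries. Txnip, a thioredoxin-binding protein whose gene is induced by glucose, was at 5.51 CPM in KO-NT 4 and 117 CPM in KO-GS 3, opposite to the rest of both groups. For both genes these are levels of the other medium. Whether the medium labels of KO-NT 4 and KO-GS 3 are right was not tested, and the values over 14 libraries take the labels as given. Values are therefore given over 14 libraries and over the 12 that remain without KO-NT 4 and KO-GS 3, with the set named beside each. Both of these libraries had the low Sirt7 level of the SirT7-/- group.

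Loss of SirT7 left few differences that passed the test in both media. Sirt7 itself was the single gene called over 14 libraries, and Pcyt2, its neighbour on chromosome 11, was called with it over 12 libraries. The test was the genotype coefficient of an additive model of genotype and medium, fitted with edgeR's quasi-likelihood method and called at a Benjamini-Hochberg adjusted p under 0.05. Over 14 libraries 1 of 15666 tested genes was called (0.00638%), and over 12 libraries 2 of 15864 (0.0126%). At an unadjusted p under 0.05 there were 386 genes over 14 libraries (2.46%, with 229 higher and 157 lower in SirT7-/-). Over 12 libraries there were 1009 (6.36%, with 459 higher and 550 lower), where a test with no true difference passes 5%. After Sirt7, the smallest adjusted p over 14 libraries was 0.328, for Sez6l, and after Pcyt2 the smallest over 12 libraries was 0.241, for P4hb.

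The precision behind these counts differed by gene. The standard error (SE) of the log2 difference had a median of 0.151 over 14 libraries, with quartiles of 0.0947 and 0.298, and of 0.125 over 12 libraries. For 12426 genes (79.3%) over 14 libraries the whole 95% interval lay within a 2-fold difference in either direction, and for 9815 (62.7%) it lay within 1.5-fold. Over 12 libraries these numbers were 12564 (79.2%) and 10247 (64.6%). The median log2 difference of all tested genes was 0.0135 over 14 libraries and -0.0073 over 12. DESeq2 called more genes, 5 over 14 libraries (0.0319%) and 65 over 12 (0.410%), and limma-voom called 1 and 2. Below, called or passed with no tool named refers to edgeR's test.

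**Figure D1:**
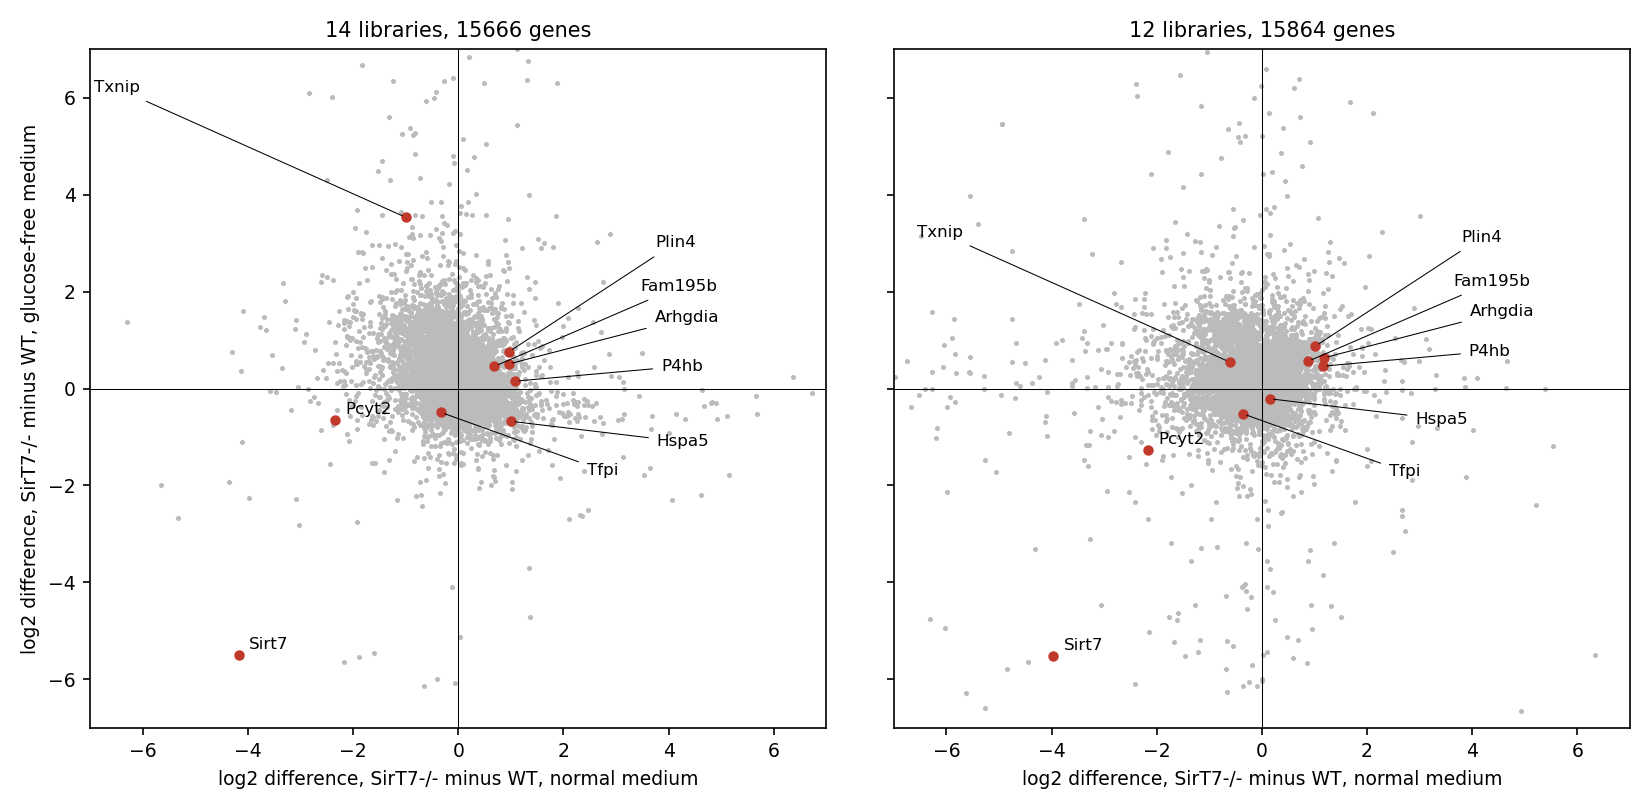
Genotype difference of every tested gene in normal medium (x axis, log2 of SirT7-/- over WT) against that in glucose-free medium (y axis, same unit), over 14 libraries (left) and 12 (right), with 15 and 26 genes beyond the axis limit of 7 not drawn. Sirt7 lies far below 0 in both media in both panels. Hspa5 and Txnip differ in sign between media over 14 libraries and lie further from the centre there than over 12, Txnip most of all in glucose-free medium.

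Sirt7 was the check on the labels. Its level was 17.7, 23, 21.2 and 18.3 CPM in WT-NT 1 to 4 and 17.9, 17.4 and 17.5 CPM in WT-GS 1 to 3. The SirT7-/- libraries had 1.01, 1.41, 1.44 and 0.554 CPM in KO-NT 1 to 4 and 0.292, 0.478 and 0.390 CPM in KO-GS 1 to 3. All 7 SirT7-/- libraries lay far below all 7 wild-type libraries, and KO-NT 4 lay between the other KO-NT libraries and KO-GS. These low levels rested on 24 to 109 counts per library, against 1036 to 2060 in wild type. Sirt7 fell by 4.71 on the log2 scale over 14 libraries (SE 0.29, edgeR adjusted p = 5.35e-06) and by 4.51 over 12 (SE 0.30, edgeR adjusted p = 6.84e-05). Within media the log2 difference over 14 libraries was -4.18 in normal medium and -5.51 in glucose-free medium, each called on its own.

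Pcyt2 encodes CTP:phosphoethanolamine cytidylyl-transferase, the regulatory enzyme of phosphatidylethanolamine synthesis by the Kennedy pathway. Pcyt2 stood at 62.2, 90.2, 57.7 and 57.3 CPM in WT-NT 1 to 4 and at 14.2, 16.0, 15 and 7.17 CPM in KO-NT 1 to 4. In glucose-free medium it stood at 16.1, 15.7 and 16.8 CPM in WT-GS 1 to 3 and at 7.05, 6.25 and 17.7 CPM in KO-GS 1 to 3. The genotypes did not overlap in normal medium. In glucose-free medium KO-GS 1 and KO-GS 2 lay below every WT-GS library, while KO-GS 3 lay above all of them. Over 12 libraries Pcyt2 fell by 1.79 on the log2 scale (SE 0.18, edgeR adjusted p = 0.00365), with -2.16 in normal and -1.28 in glucose-free medium. Over 14 libraries the difference was -1.63 (SE 0.35, edgeR adjusted p = 1.0), which did not pass. DESeq2 called Pcyt2 over 14 libraries as well (adjusted p = 0.00304). The edgeR call over 12 libraries was lost with no medium term in the model.

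Cept1 encodes the choline and ethanolamine phosphotransferase that acts after Pcyt2 in the same pathway. Its level was 55.5 to 64.2 CPM in WT-NT, 45.2 to 55.4 CPM in KO-NT, 62.2 to 65.7 CPM in WT-GS and 48.3 to 61.6 CPM in KO-GS. The SirT7-/- libraries were lower in both media, by margins of under 1 CPM at the nearest libraries. The log2 difference of Cept1 was -0.28 over 14 libraries (SE 0.071) and -0.30 over 12 (SE 0.071), and neither passed edgeR's test (adjusted p = 1.0 and 0.580).

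**Figure D2:**
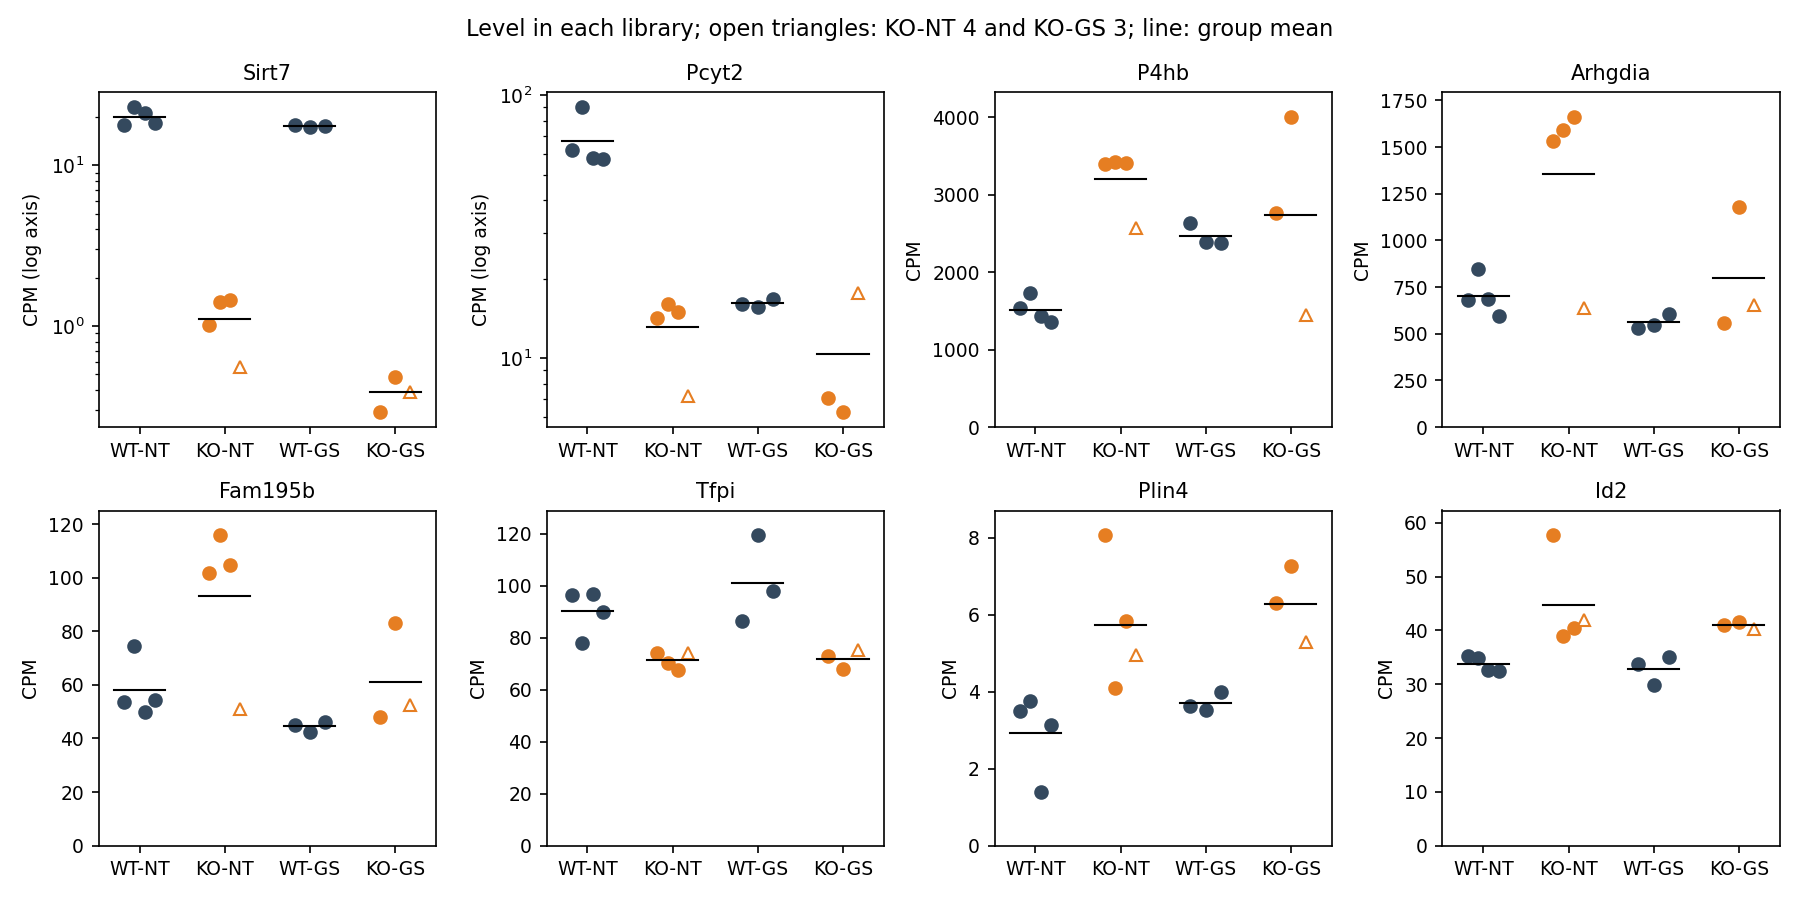
Level of 8 genes in each library in CPM (log axis for Sirt7 and Pcyt2), with open triangles for KO-NT 4 and KO-GS 3 and a line at each group's mean. Sirt7 is low in all 7 SirT7-/- libraries, whereas Pcyt2, P4hb, Arhgdia and Fam195b place KO-NT 4 or KO-GS 3 away from the rest of their group.

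Genes were next sorted by whether the libraries of the genotypes overlapped. Over 14 libraries 8 genes (0.0511%) had every SirT7-/- library on one side of every wild-type library in both media, 4 higher and 4 lower. A further 25 genes were separated in both media but in opposite directions. The 4 higher genes were Sez6l, Plin4, Id2 and Fuk, and the 4 lower genes were Sirt7, Tfpi, Cept1 and Uqcrb. Of the 8, Sirt7 was the one that passed edgeR's test. Fuk, Uqcrb and Cept1 were separated by margins so small that the rescaling of the libraries over 12 closed them.

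Tfpi encodes the inhibitor of the tissue factor pathway of coagulation. Tfpi was at 96.3, 78.0, 96.8 and 89.8 CPM in WT-NT 1 to 4 and at 73.9, 70.1, 67.7 and 74.3 CPM in KO-NT 1 to 4. In glucose-free medium it was at 86.2, 119 and 97.9 CPM in WT-GS 1 to 3 and at 72.8, 67.9 and 75.1 CPM in KO-GS 1 to 3. KO-NT 4 and KO-GS 3 sat with the rest of their groups for this gene. The mean of KO-NT was 71.5 ± 3.17 CPM (SD, n = 4) and that of KO-GS 71.9 ± 3.69 CPM (SD, n = 3), against 90.2 ± 8.77 (SD, n = 4) in WT-NT and 101 ± 16.8 (SD, n = 3) in WT-GS. The log2 difference of Tfpi was -0.40 over 14 libraries (SE 0.078, edgeR adjusted p = 0.855) and -0.43 over 12 (SE 0.088, edgeR adjusted p = 0.531). DESeq2 called it over 14 libraries with an adjusted p of 0.00586.

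Id2, an inhibitor of basic helix-loop-helix transcription factors, was at 35.2, 34.9, 32.6 and 32.4 CPM in WT-NT 1 to 4 and 57.7, 39.0, 40.5 and 41.9 CPM in KO-NT 1 to 4. In glucose-free medium Id2 was at 33.8, 29.8 and 35 CPM in WT-GS 1 to 3 and 41.0, 41.6 and 40.2 CPM in KO-GS 1 to 3. Each SirT7-/- library was above each wild-type library, with KO-NT 1 far above the rest. The log2 difference of Id2 was 0.37 over 14 libraries (SE 0.084, edgeR adjusted p = 1.0) and 0.39 over 12 (SE 0.093, edgeR adjusted p = 0.580). Plin4, a coat protein of lipid droplets, had 1.39 to 3.75 CPM in WT-NT, 4.10 to 8.07 CPM in KO-NT, 3.52 to 4.00 CPM in WT-GS and 5.30 to 7.27 CPM in KO-GS. Its log2 difference was 0.88 over 14 libraries (SE 0.21) and 0.96 over 12 (SE 0.23), and neither passed edgeR's test. DESeq2 called Plin4 over 12 libraries (adjusted p = 0.0296). Sez6l, a membrane protein of neurons, was at 0.067 to 0.184 CPM in wild type and 0.303 to 0.652 CPM in SirT7-/-. Its log2 difference was 1.81 over 14 libraries (SE 0.30) and 1.61 over 12 (SE 0.32), which DESeq2 called in both sets (adjusted p = 0.00025 and 0.0122) and edgeR did not. Plin4 and other lipid genes are also active in fat cells. Summed adipocyte markers, 10 genes, ran from 65.7 to 153 CPM in WT-NT, 74.8 to 201 CPM in KO-NT, 56.6 to 65.5 CPM in WT-GS and 49.8 to 129 CPM in KO-GS, and none was at 0 throughout. Of these, all 7 tested over 14 libraries were above 0, with a median log2 difference of 0.50, and all 9 tested over 12, with a median of 0.97. Within KO-NT, KO-NT 1 was the highest library for every marker except Cebpa and Cd36, which were highest in KO-NT 4. Plin1 was at 1.13 CPM in KO-NT 1 against 0 to 0.0523 CPM in KO-NT 2 to 4. Fabp4 was at 18.5 CPM in KO-NT 1 against 1.72 to 9.95 CPM in KO-NT 2 to 4. WT-GS 3 was the highest of its group for Fabp4, at 9.31 CPM. The shared sign did not hold in every SirT7-/- library. Cebpa was at 6.11 CPM in KO-NT 3 against 6.83 to 9.39 CPM in WT-NT. Within media the medians were 0.91 in normal and 0.30 in glucose-free medium over 14 libraries, and 1.39 and -0.11 over 12. None was called, and their part in the Plin4 result and in the lipid genes described below was not tested.

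Without KO-NT 4 and KO-GS 3 the genotypes were separated in both media for 175 genes (1.10%), 63 higher and 112 lower in SirT7-/-. Another 63 genes were separated in both media but in opposite directions. Most of the separations were small, with a median size of 0.26 on the log2 scale. In 142 of the 175 the difference was under 1.5-fold, and in 19 it was at least 2-fold. An unadjusted p under 0.05 was reached by 160 of them and the adjusted threshold by Sirt7 and Pcyt2. DESeq2 called 65 genes over 12 libraries, of which 43 were among the 175. The 175 were chosen for separation in these same libraries, which favours a small p. The 160 and the 43 are therefore no separate support. Among the 65 were Sirt7, Pcyt2, Tfpi, Sez6l, Plin4, Id2, Cept1 and, described below, P4hb, Arhgdia, Fam195b and Fasn. The 65 also held Lama3, Itih5, Aim1, Klf8, Olr1, Tcfl5, Hoxb7, Fbln2, Pde4b and Pdk1. Of these named genes edgeR called Sirt7 and Pcyt2. Sirt7, Tfpi, Plin4, Id2 and Sez6l were the 5 genes separated in both sets of libraries.

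Among the separated genes with at least 5 CPM in a group, predicted and clone symbols left out, 44 were higher and 91 lower, and the 12 of largest difference in each direction are described here. The higher ones were led by Lama3. Lama3, a laminin chain of basement membranes, had a log2 difference of 1.11 (SE 0.21) over 12 libraries and 1.03 (SE 0.32) over 14. Itih5, a hyaluronan-associated secreted protein, had 1.07 (SE 0.28) over 12, followed by Plin4. P4hb, which encodes protein disulfide isomerase of the ER, had 0.88 (SE 0.14). Then came Fam195b at 0.75, Aim1 at 0.71 and the transcription factors Bcl11b at 0.68 and Klf8 at 0.46. Mir17hg, the host transcript of a microRNA cluster, had 0.44, the membrane scaffold Slc9a3r1 had 0.42, and Mesdc1 and the histone deacetylase Hdac5 had 0.41 each.

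The lower ones were led by Sirt7 and Pcyt2. Olr1, a receptor for oxidised low-density lipoprotein, had a log2 difference of -1.08 (SE 0.26) over 12 libraries and -0.73 (SE 0.30) over 14. Over 12 libraries the other lower genes lay between -0.61 and -0.43. They were the synaptotagmin Syt17, the cell adhesion protein Iglon5, the transcription factors Tcfl5 and Hoxb7, the phosphoinositide-binding adaptor Plekha2, the cyclic GMP phosphodiesterase Pde5a, Ccdc122, the pseudogene Rps15a-ps6 and Tfpi. Rps15a-ps6, at -0.43 (SE 0.11) over 12 libraries, can share reads with the ribosomal protein gene it derives from, so its value is uncertain. None of these genes other than Sirt7 and Pcyt2 passed edgeR's adjusted threshold.

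KO-NT 4 or KO-GS 3 fell within or beyond the wild-type range for all of these genes except Sirt7, Plin4 and Tfpi. Lama3 was at 4.63, 3.74, 3.70 and 6.22 CPM in KO-NT 1 to 4 against 1.1 to 2.40 CPM in WT-NT. It was at 7.54, 15.2 and 2.39 CPM in KO-GS 1 to 3 against 4.6 to 5.70 CPM in WT-GS. KO-GS 3 was thus below wild type where the other KO-GS libraries were above. Olr1 was at 23.1, 23, 25.1 and 36.5 CPM in KO-NT 1 to 4 against 26.4 to 98.4 CPM in WT-NT, and at 31.5, 34.8 and 80.8 CPM in KO-GS 1 to 3 against 52.2 to 77.9 CPM in WT-GS. Aim1, a crystallin-domain protein, was higher in KO-NT 1 to 3 at 10.1 to 15.4 CPM than in WT-NT at 6.86 to 7.96 CPM, but KO-NT 4 was at 7.64 CPM, within the wild-type range. In glucose-free medium all 3 KO-GS libraries were higher for Aim1, at 8.45 to 11.7 CPM against 5.79 to 6.95 CPM in WT-GS.

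**Figure D3:**
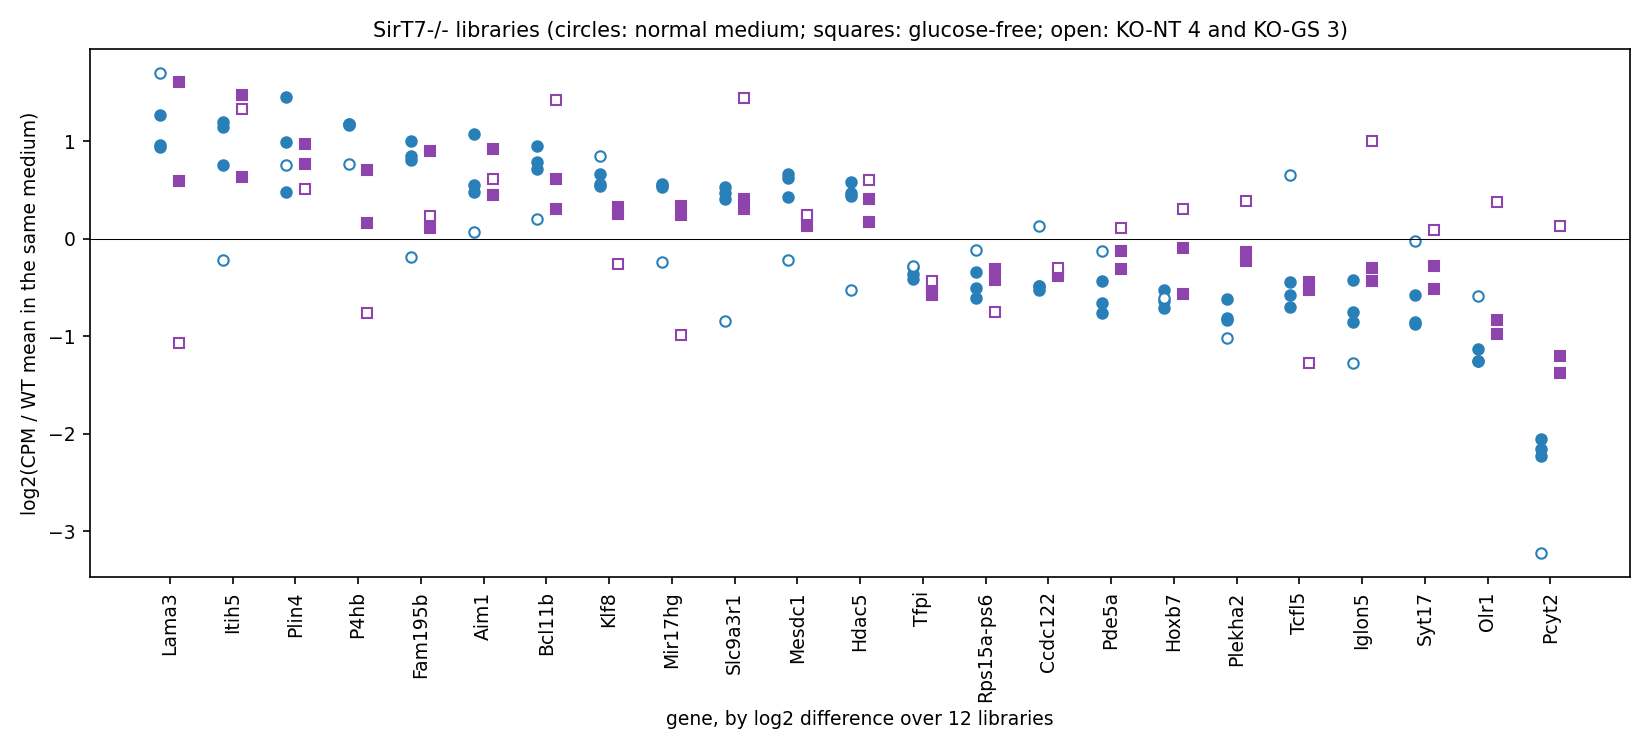
Level of each SirT7-/- library relative to the wild-type mean of the same medium (y axis, log2 ratio of CPM) for the genes of largest difference that were separated by genotype in both media over 12 libraries, Sirt7 left out. Filled circles (normal medium) and squares (glucose-free) lie on one side of 0 for each gene because genes were chosen for that, while the open symbols of KO-NT 4 and KO-GS 3 often lie on the other side and for Tfpi and Plin4 do not.

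Several genes next to Sirt7 were among those with the smallest p. Of the 20 protein-coding genes on each side of Sirt7 in RefSeq's order on chromosome 11, all 40 were matched and 32 were tested. Over 14 libraries none was called, and 5 had an unadjusted p under 0.05, with Fam195b, P4hb and Arhgdia higher and Pcyt2 and Slc16a3 lower. Over 12 libraries Pcyt2 was called, and Fam195b, P4hb, Arhgdia and Fasn were higher at an unadjusted p under 0.05. These 5 of 32 in either set stand beside 2.46% of all genes over 14 libraries and 6.36% over 12. The median log2 difference of the 32 was 0.037 over 14 libraries and 0.038 over 12. Cbr2, at 0.74 (SE 0.44) over 14 libraries and 0.73 (SE 0.37) over 12, and Notum, at 0.50 (SE 0.49) and 0.71 (SE 0.52), had large errors. The nearest tested gene on the other side of Sirt7, Mafg, encodes a small MAF transcription factor and had 0.089 (SE 0.11) over 14 libraries and 0.11 (SE 0.075) over 12. Alyref and Anapc11, which lie between Arhgdia and Pcyt2, had 0.031 (SE 0.14) and -0.087 (SE 0.12) over 14 libraries and 0.032 (SE 0.10) and -0.083 (SE 0.11) over 12.

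P4hb was at 1542, 1727, 1432 and 1364 CPM in WT-NT 1 to 4 and at 3402, 3420, 3417 and 2578 CPM in KO-NT 1 to 4. In glucose-free medium it was at 2632, 2393 and 2384 CPM in WT-GS 1 to 3 and at 2760, 4008 and 1455 CPM in KO-GS 1 to 3. All 4 KO-NT libraries were higher than WT-NT. In glucose-free medium KO-GS 2 was far above wild type, KO-GS 1 just above it and KO-GS 3 below it. The log2 difference of P4hb was 0.68 over 14 libraries (SE 0.22, edgeR adjusted p = 1.0) and 0.88 over 12 (SE 0.14, edgeR adjusted p = 0.241). Over 12 libraries P4hb was called within normal medium, at 1.16 (edgeR adjusted p = 0.0170), and not within glucose-free medium, at 0.46, and the difference between media was not called.

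Arhgdia was at 678, 845, 685 and 595 CPM in WT-NT 1 to 4 and at 1533, 1594, 1662 and 640 CPM in KO-NT 1 to 4. In glucose-free medium it was at 534, 548 and 604 CPM in WT-GS 1 to 3 and at 558, 1177 and 655 CPM in KO-GS 1 to 3. KO-NT 1 to 3 and KO-GS 2 lay far above every wild-type library of their medium, KO-GS 3 lay just above, and KO-NT 4 and KO-GS 1 lay within the wild-type range. The log2 difference of Arhgdia was 0.76 over 14 libraries (SE 0.22, edgeR adjusted p = 1.0) and 0.96 over 12 (SE 0.17, edgeR adjusted p = 0.430).

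Fam195b, named Mcrip1 in RefSeq, encodes a protein that binds the corepressor CtBP. Its pattern was like that of Arhgdia. It was at 53.6, 74.4, 49.8 and 54.5 CPM in WT-NT 1 to 4 and at 102, 116, 105 and 51.0 CPM in KO-NT 1 to 4. In glucose-free medium it was at 45.2, 42.3 and 46.3 CPM in WT-GS 1 to 3 and at 48.0, 83.1 and 52.5 CPM in KO-GS 1 to 3. KO-NT 4 was again within the wild-type range and KO-GS 2 again the highest of its group. The log2 difference of Fam195b was 0.59 over 14 libraries (SE 0.18) and 0.75 over 12 (SE 0.14, edgeR adjusted p = 0.473). Fasn, the fatty acid synthase, had 393 to 427 CPM in WT-NT, 482, 552, 538 and 205 CPM in KO-NT 1 to 4, 166 to 183 CPM in WT-GS and 190, 203 and 470 CPM in KO-GS 1 to 3. Its log2 difference was 0.37 over 14 libraries (SE 0.24, edgeR adjusted p = 1.0) and 0.27 over 12 (SE 0.058, edgeR adjusted p = 0.554).

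**Figure D4:**
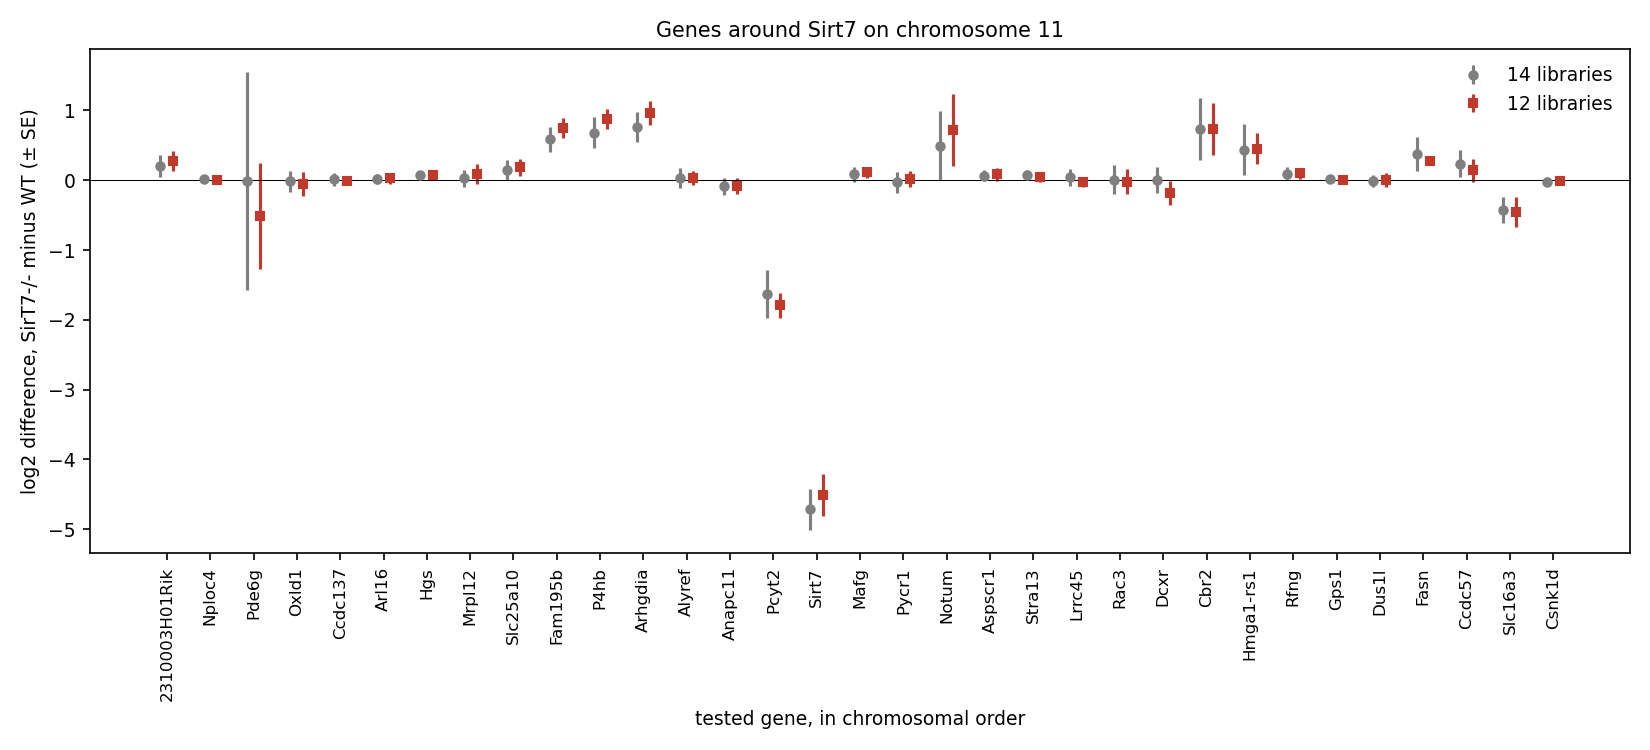
Genotype difference (log2 of SirT7-/- over WT, with SE as bars) of Sirt7 and its 32 tested neighbours in chromosomal order, over 14 libraries (grey circles) and 12 (red squares). Fam195b, P4hb and Arhgdia stand above 0 and Pcyt2 and Sirt7 below it, with genes near 0 between them.

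Promoter sequences are shown for Sirt7 and for the 3 neighbours that were higher at an unadjusted p under 0.05 in both sets of libraries. These 3 genes lie close together and were high in KO-NT 1 to 3 and KO-GS 2. Fasn, higher at that threshold over 12 libraries alone, is not shown. Each line is 250 bases before to 50 bases after the start of transcription from RefSeq on build GRCm38.p6, minus strand, written 5′ to 3′. The submitters' processing notes name mm9 as the build of the deposited table, so these coordinates do not apply to it. Capitals mark CCGGAAGT, the core bound by ETS factors such as ELK4, or its reverse complement, and the E-box CACGTG, bound by MYC and related factors. The Sirt7 window is chr11:120624965-120625264, that of P4hb chr11:120573204-120573503, that of Arhgdia chr11:120581575-120581874 and that of Fam195b chr11:120549678-120549977.
Sirt7: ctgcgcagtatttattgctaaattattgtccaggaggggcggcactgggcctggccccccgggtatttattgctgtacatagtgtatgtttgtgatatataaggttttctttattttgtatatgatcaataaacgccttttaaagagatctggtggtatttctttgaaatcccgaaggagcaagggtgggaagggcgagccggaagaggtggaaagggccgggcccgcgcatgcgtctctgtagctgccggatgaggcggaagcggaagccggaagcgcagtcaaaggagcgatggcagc
P4hb: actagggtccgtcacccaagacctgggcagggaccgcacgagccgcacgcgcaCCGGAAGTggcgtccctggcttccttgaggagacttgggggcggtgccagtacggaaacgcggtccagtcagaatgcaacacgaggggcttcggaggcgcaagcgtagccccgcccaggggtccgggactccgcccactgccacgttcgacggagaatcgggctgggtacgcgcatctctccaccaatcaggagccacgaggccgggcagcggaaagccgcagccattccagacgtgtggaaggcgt
Arhgdia: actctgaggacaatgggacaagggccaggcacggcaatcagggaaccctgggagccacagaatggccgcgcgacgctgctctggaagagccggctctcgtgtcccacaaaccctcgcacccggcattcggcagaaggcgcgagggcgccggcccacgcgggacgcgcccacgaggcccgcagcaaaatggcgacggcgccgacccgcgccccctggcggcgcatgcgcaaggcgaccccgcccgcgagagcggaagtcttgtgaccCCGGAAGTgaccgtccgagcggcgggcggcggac
Fam195b: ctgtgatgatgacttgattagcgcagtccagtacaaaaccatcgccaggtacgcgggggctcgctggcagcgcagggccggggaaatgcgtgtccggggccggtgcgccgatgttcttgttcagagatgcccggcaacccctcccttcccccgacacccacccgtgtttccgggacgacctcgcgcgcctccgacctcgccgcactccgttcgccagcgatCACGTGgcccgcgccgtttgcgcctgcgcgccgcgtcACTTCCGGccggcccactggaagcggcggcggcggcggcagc
The windows of P4hb, Arhgdia and Fam195b each held 1 ETS core, on the reverse strand in Fam195b, and the Fam195b window held 1 E-box. The Sirt7 window held neither motif, and the Fasn window held neither as well. Both strands were searched, and the motifs did not overlap. Of all 27025 promoters scanned, 4.00% held the ETS core and 7.24% the E-box. Of the 34 neighbours with an entry 6 held the ETS core, Fam195b, P4hb, Arhgdia, Alyref, Anapc11 and Dus1l, and the latter 3 had log2 differences near 0. The ER stress response element (ERSE) was in no neighbour's window and in 0.13% of all promoters. A match describes these letters only.

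The genotype difference was also compared between the media. No gene was called for a difference between media over 14 libraries or over 12 with edgeR (0.00%), where 950 and 524 genes had an unadjusted p under 0.05. DESeq2 called 4 and 16, and limma-voom called none in either set. Within single media and over 14 libraries, Sirt7 was the 1 gene called in each. Over 12 libraries Sirt7, Pcyt2, P4hb and Zfp36l2 were called in normal medium and Sirt7 in glucose-free medium. Zfp36l2, which encodes a protein that binds AU-rich messenger RNA, had 0.53 in normal medium and 0.085 in glucose-free medium. The genotype difference had the same sign in both media for 5879 genes (37.5%) over 14 libraries and for 8342 (52.6%) over 12.

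Gene groups tied to the known sites of SIRT7 lay near 0 over both media in both sets of libraries. Over 14 libraries their medians differed in sign between media, and over 12 all but those of the ribosomal proteins still did. All 76 tested ribosomal protein genes of the cytosol had intervals within 2-fold, with a median log2 difference of -0.0074 over 14 libraries and -0.025 over 12. The 39 ribosome assembly factors had medians of 0.010 and 0.026, the 19 genes of the RNA polymerase I machinery -0.012 and 0.0069, and the 74 mitochondrial ribosomal proteins 0.012 and 0.0024. In these 3 groups as well every interval lay within 2-fold, and no gene was called. Over 14 libraries the medians within normal and glucose-free medium were 0.16 and -0.22 for the ribosomal proteins, 0.15 and -0.21 for the assembly factors, 0.099 and -0.091 for the RNA polymerase I genes and 0.080 and -0.097 for the mitochondrial ribosome. Over 12 libraries they were -0.0046 and -0.063, 0.12 and -0.091, 0.043 and -0.042, and 0.037 and -0.057 in the same order. The ones of smallest p were Mrps33, at -0.18 over 14 libraries (SE 0.059) and -0.20 over 12 (SE 0.062), and Mrpl13, at -0.16 and -0.19. Of 44 respiratory chain subunits none was called, and the median was -0.019 over 14 libraries and -0.0097 over 12. Uqcrb, a subunit of complex III, was separated in both media over 14 libraries, at 70.6 to 75.5 CPM in WT-NT, 62.5 to 70.6 CPM in KO-NT, 78.3 to 79.9 CPM in WT-GS and 64.6 to 77.5 CPM in KO-GS, where the nearest normal-medium libraries differed by less than the rounding shown. For Uqcrb the log2 difference was -0.12 over 14 libraries (SE 0.052) and -0.12 over 12 (SE 0.054).

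Among the 21 other sirtuins, macroH2A genes and PARP enzymes none was called, and the medians were 0.038 over 14 libraries and -0.057 over 12. Sirt1, the nuclear deacetylase most studied of the family, had 0.091 (SE 0.13) over 14 libraries and 0.13 (SE 0.057) over 12, and Parp8, an ADP-ribosyltransferase, had -0.13 (SE 0.12) and -0.17 (SE 0.058). H2afy, which encodes macroH2A1, had -0.18 (SE 0.090) over 14 libraries and -0.10 (SE 0.084) over 12. None of these 3 passed the adjusted threshold. Counts per gene do not separate the macroH2A1 splice forms.

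For gene groups that respond to the medium, the values differed between the 14 and the 12 libraries. All 24 ER chaperones had a log2 difference above 0 over 14 libraries, with a median of 0.40, and none was called. The medians within media were 1.03 in normal and -0.51 in glucose-free medium. Over 12 libraries 10 were above 0 and 14 below, the median was -0.0067 and the medians within media were 0.014 and -0.068. P4hb, described above, was the member of smallest p in both sets. Hspa5 itself had 0.29 (SE 0.47) over 14 libraries and 0.0015 (SE 0.11) over 12. Ero1l, the oxidase that recharges protein disulfide isomerase, had 0.0079 (SE 0.39) over 14 libraries and -0.36 (SE 0.11) over 12. In the ATF4 stress response, 22 of 30 genes were above 0 over 14 libraries and 19 over 12, with medians of 0.056 and 0.039.

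Genes of sterol and fatty acid synthesis were above 0 in 32 of 34 cases over 14 libraries, with a median of 0.38, and in 28 of 34 over 12, with a median of 0.13. None was called by edgeR, while DESeq2 called Fasn over 12 libraries (adjusted p = 0.00425). Over 12 libraries 6 had an edgeR unadjusted p under 0.05, all higher, where 2.89% of all genes did. Among them were Fasn, described above, Srebf2 at 0.25 (SE 0.092) and Insig1 at 0.26 (SE 0.099). Over 14 libraries these were 0.34 (SE 0.26) for Srebf2 and 0.58 (SE 0.43) for Insig1. Srebf2 encodes the transcription factor that drives this pathway, and Insig1 a sterol sensor that restrains it. Over 12 libraries Insig1 had 0.39 in normal medium and 0.086 in glucose-free medium, a difference between media that was not called.

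Genes of glycolysis lay mostly on the other side. Over 12 libraries 25 of 29 were below 0, with a median of -0.13 and medians of -0.19 in normal and -0.11 in glucose-free medium. No member was called, and 8 were lower at an unadjusted p under 0.05, where 3.47% of all genes were. Pdk1, the kinase that turns off pyruvate dehydrogenase, was at 24.6 to 35.6 CPM in WT-NT and 15.1 to 17.5 CPM in KO-NT 1 to 3, with 42.2 CPM in KO-NT 4. In glucose-free medium Pdk1 overlapped, at 43.5 to 57.8 CPM in WT-GS and 45.9, 39.2 and 28.4 CPM in KO-GS 1 to 3. For Pdk1 the log2 difference was -0.40 over 14 libraries (SE 0.21, edgeR adjusted p = 1.0) and -0.60 over 12 (SE 0.14, edgeR adjusted p = 0.580). DESeq2 called Pdk1 over 12 libraries (adjusted p = 0.0206). Pfkfb3, which makes the activator of phosphofructokinase, had -0.50 (SE 0.32) over 14 libraries and -0.85 (SE 0.26) over 12. The phosphofructokinase genes Pfkm and Pfkl had -0.15 and -0.19 over 14 libraries and -0.19 and -0.25 over 12. Over 14 libraries 22 of 29 were below 0 and the median was -0.083.

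Cell cycle genes were slightly above 0. All 30 genes of G2 and mitosis were above 0 over 14 libraries, with a median of 0.16, and 29 over 12, with a median of 0.13. Within media the medians were -0.075 in normal and 0.50 in glucose-free medium over 14 libraries, and 0.14 and 0.11 over 12. The 36 DNA replication genes had 29 above 0 over 14 libraries and 33 over 12, with medians of 0.058 and 0.11. No member was called in either group, and Cdc25b, the phosphatase that starts mitosis, had the smallest p over 12 libraries, at 0.30 (SE 0.078), with 0.32 (SE 0.18) over 14. The p53 targets were mostly below 0 over 12 libraries, in 20 of 22 cases with a median of -0.20, and in 14 of 22 over 14 libraries with a median of -0.070. Within normal and glucose-free medium their medians were -0.33 and -0.013 over 12 libraries, and -0.096 and 0.062 over 14. Gadd45a had -0.41 (SE 0.14) and Mdm2, the ligase that degrades p53, had -0.38 (SE 0.13) over 12 libraries. Over 14 libraries these were -0.070 (SE 0.36) and -0.17 (SE 0.19), and none of these values passed the adjusted threshold.

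**Figure D5:**
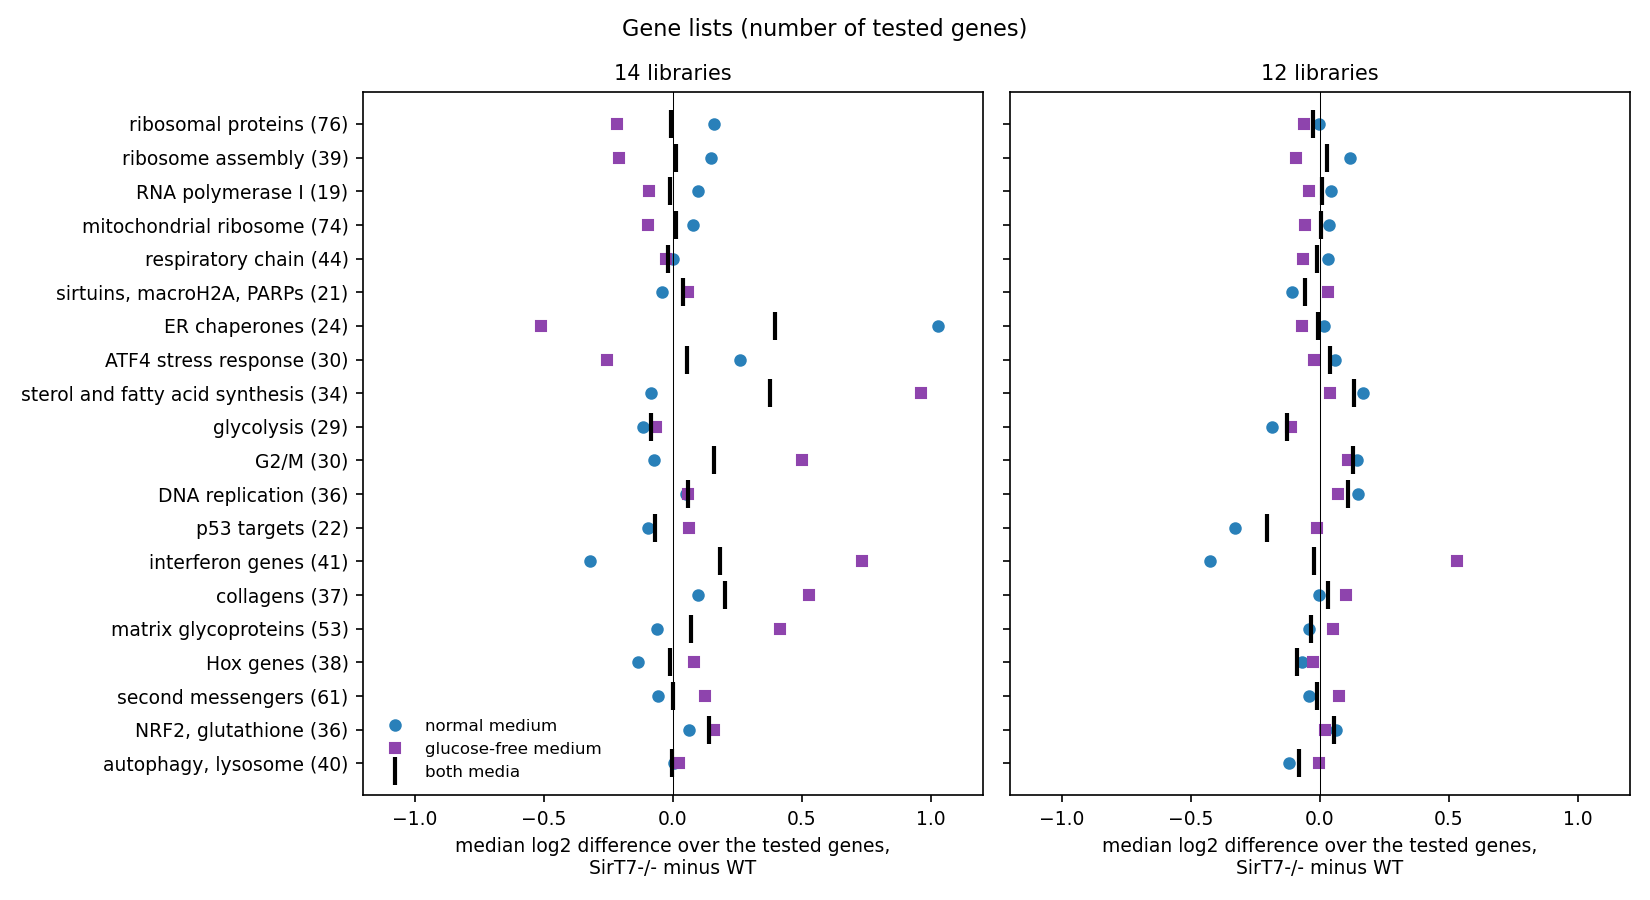
Median log2 difference of SirT7-/- over WT (x axis) over the tested genes of 20 gene lists, in normal medium (blue circles), in glucose-free medium (purple squares) and over both (black bars), over 14 libraries (left) and 12 (right). ER chaperones and sterol genes differ between media over 14 libraries, with medians from -0.51 to 1.03, and lie within 0.2 of 0 over 12, while interferon genes differ between media in both panels.

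Matrix genes lay on both sides of 0. The 37 collagens had 26 above 0 and 11 below over 14 libraries, with a median of 0.20, and 21 and 16 over 12, with a median of 0.030. The 53 matrix glycoproteins had 35 above 0 and 18 below over 14 libraries, with a median of 0.071, and 22 and 31 over 12, with a median of -0.036. None was called. Lama3 and Lama5, both laminin chains, were above 0, and Lama5 had 0.70 (SE 0.25) over 14 libraries and 0.77 (SE 0.22) over 12. Lamb1, another laminin chain, went the other way. It was separated by genotype in both media over 12 libraries, at -0.26 (SE 0.093). Fbln2, a fibulin, had -0.21 (SE 0.14) over 14 libraries and -0.39 (SE 0.092) over 12. The protease gene Mmp12 had the largest value of its list, 2.52 (SE 0.62) over 14 libraries and 2.42 (SE 0.69) over 12. Mmp12 was at 4.27 to 13.9 CPM in WT-NT and 34.1 to 85.0 CPM in KO-NT, but KO-GS 2, at 2.95 CPM, lay within the WT-GS range of 0.955 to 12.3 CPM while KO-GS 1 and 3 had 48.0 and 61.5 CPM. Mmp12 is also a macrophage gene. Summed macrophage markers, 15 genes with none at 0 throughout a group, ran from 334 to 2211 CPM in WT-NT, 446 to 818 CPM in KO-NT, 15.3 to 397 CPM in WT-GS and 125 to 1164 CPM in KO-GS, and their part in the result was not tested. In bulk RNA, fewer cells of a type and less RNA per cell cannot be told apart.

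Position and signalling genes also held single members of small unadjusted p. Of 38 Hox genes, which mark position along the body axis, 7 had an unadjusted p under 0.05 over 12 libraries, 1 higher and 6 lower, where 6.36% of all genes had one. The higher one was Hoxd11, at 0.91 (SE 0.30) over 12 libraries and 0.78 (SE 0.30) over 14, and among the lower ones was Hoxb7, at -0.50 (SE 0.13) and -0.39 (SE 0.15). Hoxb7 was at 4.71 to 6.64 CPM in WT-NT and 3.26 to 3.70 CPM in KO-NT. In glucose-free medium it was at 4.27 to 4.63 CPM in WT-GS and at 4.22, 3.03 and 5.53 CPM in KO-GS 1 to 3. Among growth factor genes, Igfbp4, an insulin-like growth factor binding protein, had -0.33 (SE 0.092) over 14 libraries and -0.35 (SE 0.093) over 12, and Igfbp5 had 1.14 (SE 0.53) and 0.71 (SE 0.20). Of the cyclic nucleotide phosphodiesterases, Pde4b had 0.37 (SE 0.26) over 14 libraries and 0.25 (SE 0.057) over 12, and Pde5a had -0.31 (SE 0.14) and -0.45 (SE 0.13). Of the antioxidant genes, Gpx3 had -0.53 (SE 0.19) over 14 libraries and -0.57 (SE 0.16) over 12. No Hox, growth factor, second messenger or antioxidant gene passed edgeR's adjusted threshold in either set, while DESeq2 called Hoxb7 and Pde4b over 12 libraries.

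Markers of other cell types were looked at beside these results. Interferon genes had medians of -0.32 in normal and 0.73 in glucose-free medium over 14 libraries and of -0.43 and 0.53 over 12, and none of 41 was called. Macrophage markers had medians of the same signs, -0.75 and 1.44 over 14 libraries and -0.92 and 1.29 over 12. Ckm and Myf6 of skeletal muscle, the globins Hba-a1 and Hbb-b1 and the keratin Krt5 were at 0 in all libraries. Other genes of these lists had counts, with the muscle markers Des at 34.6 to 96.7 CPM and Acta1 at 20.7 to 196 CPM. Another keratin, Krt19, was at 4.51 to 21.0 CPM. Summed, the 18 muscle markers ran from 82.2 to 145 CPM in WT-NT, 84.5 to 141 CPM in KO-NT, 98.0 to 249 CPM in WT-GS and 89.5 to 204 CPM in KO-GS. Of 13 tested muscle markers 5 were above 0 and 8 below over 14 libraries, and of 14 over 12, 10 and 4. Krt18, a keratin of simple epithelia, had 0.71 (SE 0.20) over 14 libraries and 0.64 (SE 0.20) over 12, at levels of 2.38 to 8.51 CPM. Of 7 tested epithelial markers 4 were above 0 and 3 below over 14 libraries, and 5 and 2 over 12. Of 9 endothelial markers 4 were above 0 and 5 below in both sets. Of 9 cartilage and bone markers 8 were above 0 in both sets, with medians of 0.50 over 14 libraries and 0.38 over 12. Neural markers were below 0 in 7 of 11 cases over 14 libraries and in 8 of 12 over 12, where the median was -0.37. Over 12 libraries 4 had an unadjusted p under 0.05, all lower, where 3.47% of all genes were lower at that threshold. The neural marker Gfap had a log2 difference of -3.23 (SE 0.64) over 12 libraries and was separated by genotype in both media. DESeq2 called it over 12 libraries (adjusted p = 0.00026). In glucose-free medium Gfap was low, at 0.134 to 0.285 CPM in WT-GS and 0.0364, 0 and 0.488 CPM in KO-GS 1 to 3. By edgeR no marker of the muscle, epithelial, endothelial, cartilage and bone or neural lists was called. Their part in the results above was not tested. Xist was at 793 to 1573 CPM in every library, and the Y-linked genes Ddx3y, Eif2s3y, Kdm5d and Uty were listed at 0 in all.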

How the data were processed

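RNA was measured by RNA-seq in 14 libraries of mouse embryonic fibroblasts. Per the labels' protocols, RNA was extracted with an RNeasy kit and libraries were made with the TruSeq RNA kit v2, which does not mark strand, so overlapping genes on opposite strands cannot be told apart. The submitters' processing notes name FastQC 0.11.3, Trimmomatic 0.36, HISAT2 2.1.0, SAMtools, StringTie 1.3.3, DESeq2 1.18.1 and the build mm9, without their order. The authors deposited 1 table of estimated counts for 24015 gene symbols, whole numbers in every cell. Of these, 4225 symbols were at 0 in all libraries and 27 had been turned into dates.

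Counts were used as deposited. The low-count filter was edgeR's filterByExpr over the 4 groups, with a minimum count of 10 and a minimum total of 15. Counts were scaled by TMM, and levels are CPM on that scale. Genotype was tested in an additive model of genotype and medium with edgeR 4.0.16 (robust quasi-likelihood, R 4.3.3) over all genes, with Benjamini-Hochberg adjustment. The difference between media and the values within each medium came from a model of the 4 group means. A gene differs in both media here when it is called and its libraries do not overlap by genotype, in the same direction, in either medium. DESeq2 1.42.0 and limma 3.58.1 (voom) were alternatives, and scripts were tested on simulated data. Intervals are at 95%, and floors take 3 counts as the limit of a count of 0 and cover counting error only.

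The genes and the 43 gene lists (1283 of 1286 entries matched) were chosen with earlier results of these data known. Genes were named by rule: Sirt7, the 12 largest differences in each direction among those separated in both media with at least 5 CPM in a group (predicted and clone symbols left out), up to 4 of smallest p per list, markers and Sirt7's neighbours. The 8 genes separated over 14 libraries, Zfp36l2 and the other genes of under 5 CPM or outside these sets were chosen after their values were seen.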

Additional observations from a re-analysis of the deposited data

Results flagged for a closer look

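Of 46 groups of 4 libraries looked at, 10 held a library whose distance from the others exceeded the 95% critical value of Dixon's test. Chance alone passes it in about 5% of independent groups, a rate that cannot be set against this count. The genes were chosen with their values known, some for a separation seen with KO-NT 4 left out, and they share the same libraries. In KO-NT the library KO-NT 4 was the one far from the others for 7 genes. Hspa5 was at 6300 CPM against 1460 to 1550 in the others, Txnip at 5.51 against 98.5 to 117, P4hb at 2580 against 3400 to 3420 and Arhgdia at 640 against 1530 to 1660. Olr1 was at 36.5 CPM against 23 to 25.1, Fbln2 at 4360 against 2570 to 2870 and P4ha1, a subunit of prolyl hydroxylase, at 484 against 275 to 292. In the same group KO-NT 1 was far above the others for Id2, at 57.7 CPM against 39.0 to 41.9. In WT-NT the library WT-NT 2 was high for Pcyt2, at 90.2 CPM against 57.3 to 62.2, and WT-NT 4 was low for Hspa5, at 1040 CPM against 1440 to 1470. The groups of 3 in glucose-free medium were too small for this test.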

How the results depend on the processing

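Sirt7 was called, lower in SirT7-/-, under every alternative run on both sets of libraries. Neither Sirt7 nor, over 12 libraries, Pcyt2 reversed in sign. Reversal was labelled in called genes alone, and changes of sign in the other named genes are not reported here. Of the alternative values of single genes, 120 over 14 libraries and 117 over 12 moved by at least the reported SE, with or without a change of sign. In genes not called, a change of sign by less than the SE was counted as the same. A further 13 and 73 became called, and 0 and 2 lost a call. The counts of 1 gene called over 14 libraries and 2 over 12 were the same under limma-voom, RLE scaling, library size alone, no filter and a stricter filter. DESeq2 called 5 genes over 14 libraries, 3 of them separated in both media, and 65 over 12, 45 of them separated in both media on DESeq2's own scaling and 43 on edgeR's, with 4 and 16 for the difference between media. limma-voom with library quality weights, chosen after seeing the data, called 9 genes over 14 libraries, 2 of them separated, and 6 over 12, 4 of them separated. Those included P4hb, Arhgdia and Fam195b in both sets. With no medium term 1 gene was called over 12 libraries, and with group means averaged 3 were, P4hb the third. With WT-NT 4 also left out, 1 gene, Ablim1, was called for the difference between media. The cause of these shifts was not tested.

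Leaving out each library in turn gave 1 to 2 called genes over 14 libraries and 2 to 9 over 12, with the same ranges for genes separated in both media, and 0 to 1 and 0 to 2 for the difference between media. Pcyt2 joined over 14 libraries without KO-GS 3. Over 12, 9 genes were called without KO-GS 1, a setting that leaves KO-GS with 1 library assumed to vary like the others. They were Sirt7, Pcyt2, P4hb, Arhgdia, Fam195b, Htra1, Svep1, Fez1 and Trib2. For the difference between media 1 gene was called without WT-GS 3 or KO-GS 1 over 14 libraries, and over 12 libraries 1 without WT-NT 3, WT-NT 4, WT-GS 3 or KO-GS 1 and 2 without KO-GS 2.

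The numbers were taken to pair the libraries only if every pair's deviations correlated over 0.1. This held for 5 of 7 pairs (range -0.116 to 0.458), so they were not, and 5 of 14 libraries correlated best with their own number. With the replicate number as a block, 1 gene was called over 14 libraries and 1 over 12, where Pcyt2 (edgeR adjusted p = 0.0525) was not called. Depth, at 59788270 counts or more per library, limited mainly genes near 0.0327 to 0.0502 CPM.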
